A study of Mus musculus with 12 samples.

Results

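Scavenger receptors and apoptotic cell receptors let macrophages take up modified lipoproteins, microbes and dying cells. The 9 genes described here are the class B scavenger receptors Cd36 and Scarb1, the class A receptors Msr1 and Marco, the stabilin Stab1, the receptor tyrosine kinases Mertk and Axl, their bridging ligand Gas6, and the phosphatidylserine receptor Timd4. They were chosen by symbol, and all 9 of 9 were among the 48440 genes of the deposited table. The values come from RNA-seq of mouse macrophages grown from bone marrow, in 6 groups of n = 2 libraries. Cells labelled WT were left untreated, given IFN-γ (interferon-gamma) at 100 U/mL or given IL-4 at 20 ng/mL, each for 24 h, and cells labelled CKO were handled in the same 3 ways. IRF8, a transcription factor of myeloid cells, is named in the title of the series. The labels do not name the gene changed in CKO, a Cre driver, or an animal's age or strain, so CKO is used below only as a label.

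A macrophage that meets a dying cell recognises phosphatidylserine on its surface. Timd4 binds this lipid directly, whereas Mertk and Axl bind it through the soluble bridging protein Gas6, and Mertk also through protein S. Scavenger receptors bind polyanionic or lipid ligands, and the cholesterol taken up with such cargo is sensed by the liver X receptors, which Nr1h3 encodes in part. IFN-γ is a cytokine of T and NK cells that activates macrophages, and IL-4 is a cytokine of allergy and repair that signals through STAT6.

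Each library held between 21287725 and 32717379 counts, and 16292 genes had enough counts to be tested. The 9 genes took 0.4545% to 0.7976% of a library's counts. Irf8 was at 90.9 and 91.2 CPM (counts scaled to a common library size) in untreated WT. It was at 293 and 248 CPM in the untreated libraries labelled CKO. Counts summed over the exons of a gene cannot show whether a part of it was removed. Every genotype difference below is therefore one between labels. The macrophage marker Lyz2 was at 5840 to 11900 CPM in WT and at 12.6 to 28 CPM in CKO. All 8 of 8 macrophage markers were detected in every group, and Lyz2 did not stand for the others. In CKO against WT, 2 of the 8 were called higher and 2 lower untreated, and 5 higher and 2 lower after IFN-γ. After IL-4, 0 were called higher and 3 lower. Of all tested genes, 18.0%, 18.4% and 2.96% were called in that order. Summed neutrophil markers (14 genes) were at 136 to 257 CPM in WT and 456 to 1030 CPM in CKO, and summed monocyte markers (8 genes) at 163 to 300 CPM and 240 to 632 CPM. Mmp8 alone gave 196 and 181 CPM of the neutrophil sum in untreated WT and 673 and 549 CPM in untreated CKO. In WT with IFN-γ it gave 40.3 and 40.1 CPM. F13a1 alone gave 236 and 252 CPM of the monocyte sum in untreated WT and 504 and 484 CPM in untreated CKO. Summed dendritic cell markers (9 genes) reached 51.6 to 60.8 CPM in WT with IFN-γ and were at most 12.7 CPM in the other 5 groups, and Clec9a alone gave 43.7 and 52.7 CPM of that sum. Lists for B cells (at most 4.93 CPM), T and NK cells (at most 2.81 CPM), erythroid cells (at most 0.493 CPM) and mast cells and basophils (at most 0.188 CPM) stayed low, and stromal and endothelial genes were at 8.58 to 31.3 CPM. Untreated CKO library 1 stood apart, with 1.517% mitochondrial counts against 2.121% to 3.25% in the other 11 libraries. The single mitochondrial gene mt-Rnr2 held 0.2982% of its counts, against 0.925% to 1.541% in the other 11. Results that use this library are also given without it where a call changes. The share of Gm42418 was 1.276% in that library, 1.053% in untreated WT library 1 and 0.7534% in IFN-γ WT library 1, against 0.07172% to 0.1738% in the other 9. No label states if both libraries of a group are from separate animals. The p-values therefore reflect library-to-library spread, part or all of which may be technical.

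Levels are given as CPM after TMM scaling, a correction of library size for composition. Differences are log2 fold changes ± SE from edgeR's quasi-likelihood test over all tested genes, and a call is a Benjamini-Hochberg adjusted p under 0.05. Between genes, levels were compared only as CPM per kilobase of annotated exon, and capture efficiency of the exome kit can still differ between genes. In untreated WT, Gas6 (452.2 CPM per kb), Cd36 (449.9), Marco (359.3) and Stab1 (325 CPM per kb) were the most abundant of the 9. Msr1 was at 94.1 CPM per kb, Mertk at 18.7, Scarb1 at 9.45 and Axl at 3.25 CPM per kb. Timd4 was barely present, with 0 and 3 counts in the 2 untreated WT libraries. After IFN-γ the order in WT changed to Cd36 (385.3 CPM per kb), Msr1 (194.8), Marco (153.4) and Stab1 (120.8), with Gas6 at 75.6 and Axl at 33.3 CPM per kb. The plot of levels per kilobase shows this reordering.

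**Figure D1:**
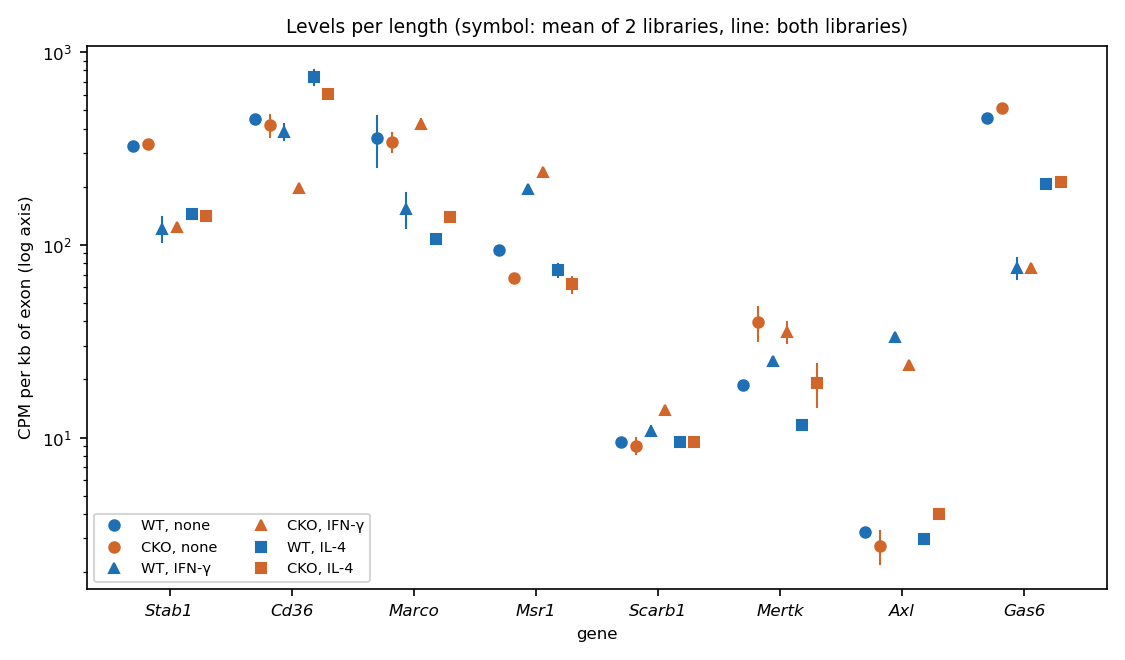
Level of 8 genes (Timd4 left out) per kilobase of annotated exon (CPM per kb, log axis) in the 6 groups, with symbols for means of 2 libraries and lines joining both libraries. Gas6 and Axl are far apart in untreated WT and move toward each other after IFN-γ.

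Across the 6 groups the highest group mean was 12.1 times the lowest for Axl, 6.77 times for Gas6, 3.98 times for Marco, 3.82 times for Msr1, 3.73 times for Cd36, 3.41 times for Mertk, 2.76 times for Stab1 and 1.53 times for Scarb1. Timd4, which passed the filter on low counts only through the WT libraries with IFN-γ, is left out of the counts of called genes. Of the other 8 genes, IFN-γ changed 5 in WT, with 2 higher and 3 lower, against 24.2% of all tested genes called (12.4% higher, 11.8% lower). In CKO it changed 6 (3 higher, 3 lower), against 26.6% (14.7% higher, 11.9% lower). IL-4 changed 4 in WT (1 higher, 3 lower), against 12.2% (6.64% higher, 5.59% lower). In CKO it changed 6 (2 higher, 4 lower), against 22.5% (11.2% higher, 11.3% lower). The difference between the IFN-γ responses was called for 2 genes (1 higher, 1 lower in CKO), against 2.72% (2.07% higher, 0.651% lower). That between the IL-4 responses was called by edgeR for none, against 0.0368% (0.0246% higher, 0.0123% lower), and DESeq2 also called none. Its unadjusted p was under 0.05 for 1 gene, Axl (0.68, edgeR's adjusted p = 0.748). The median absolute log2 change of these 8 genes was 1.14 for IFN-γ in WT, beside 0.272 for all tested genes, and 1.25 beside 0.308 in CKO. For IL-4 it was 0.70 beside 0.225 in WT and 0.80 beside 0.301 in CKO. The IFN-γ and IL-4 comparisons of a genotype share its untreated libraries.

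**Figure D2:**
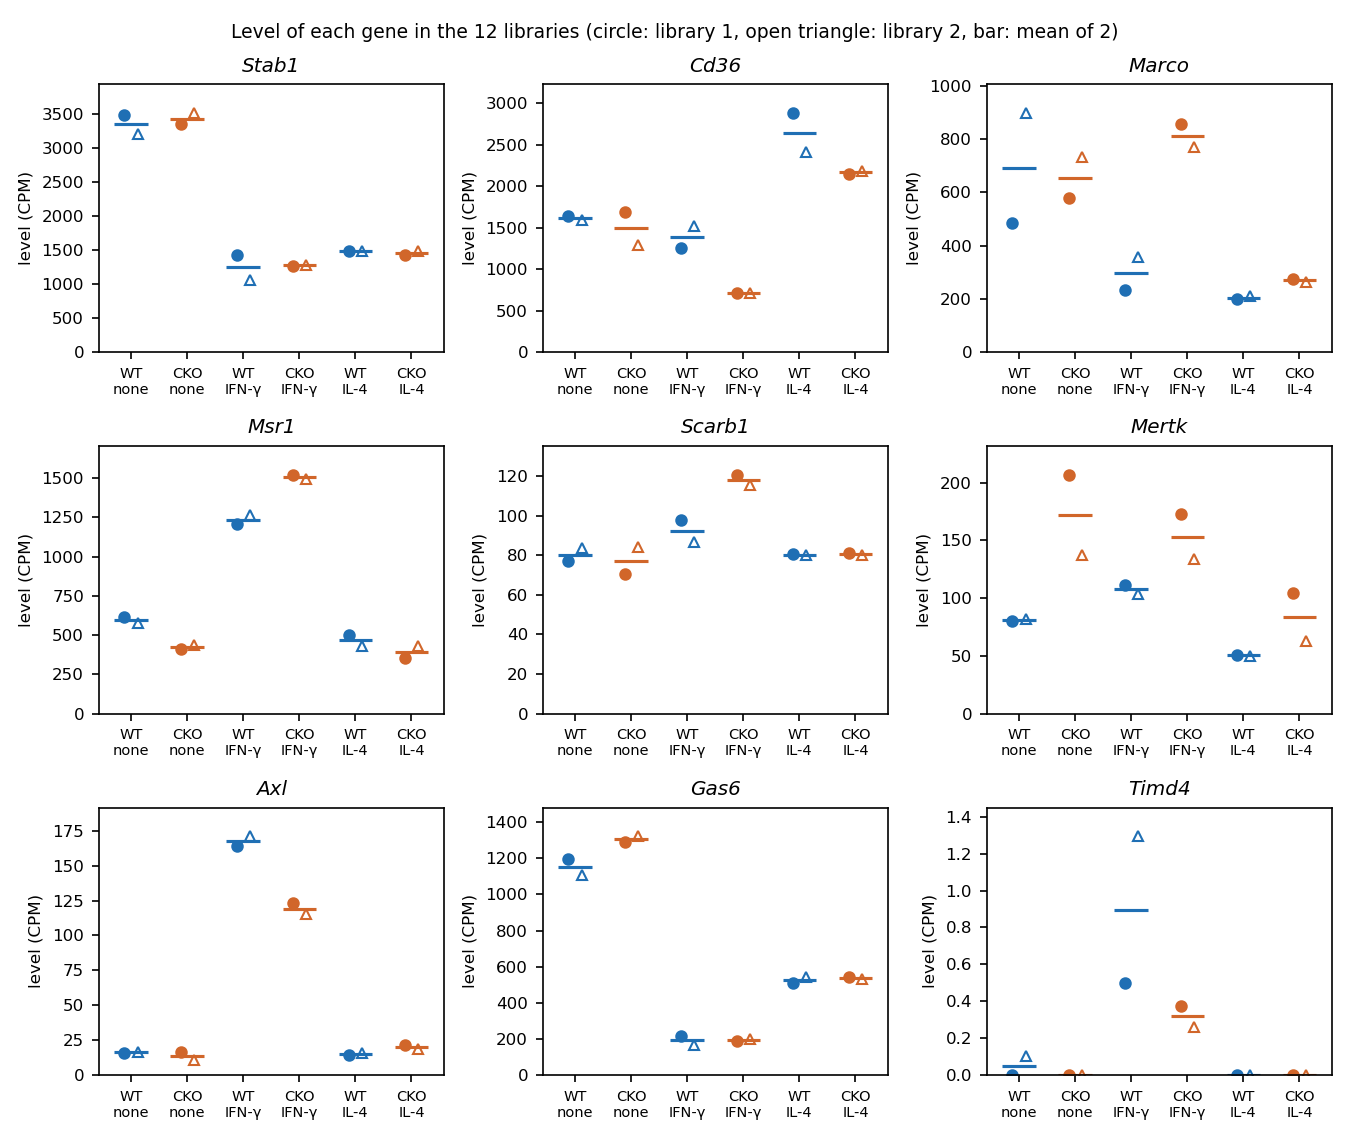
CPM (linear axis from 0) of each of the 9 genes in the 12 libraries, 1 panel per gene, with a circle or triangle per library, a bar for the mean of 2 and the groups along the horizontal axis. Axl is highest in the 4 IFN-γ libraries, and Gas6 and Stab1 are highest in the 4 untreated libraries.

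The bridging ligand Gas6 was highest in untreated cells and fell with both cytokines in both genotypes. It was at 1196 and 1108 CPM in untreated WT, 216.5 and 168.8 CPM with IFN-γ, and 509.6 and 542.8 CPM with IL-4. In CKO the same 3 conditions gave 1288 and 1323 CPM, 187 and 199.9 CPM, and 544.3 and 532.1 CPM. No untreated library overlapped a treated one, and the IL-4 libraries lay between the untreated and the IFN-γ libraries in both genotypes. Gas6 fell by 2.58 ± 0.12 on the log2 scale with IFN-γ in WT (5.98-fold, adjusted p = 2.04e-08) and by 2.75 ± 0.12 in CKO (6.75-fold, adjusted p = 1.06e-08). With IL-4 it fell by 1.13 ± 0.12 in WT (adjusted p = 5.64e-05) and by 1.28 ± 0.12 in CKO (adjusted p = 1.77e-05). These calls held in every alternative fit. In bulk RNA, fewer cells of a type and less RNA per cell cannot be told apart.

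Axl, the receptor that binds Gas6 with high affinity, was low in untreated cells and rose with IFN-γ. In WT it was at 16.1 and 16.6 CPM untreated, 163.8 and 171.2 CPM with IFN-γ, and 14.2 and 15.7 CPM with IL-4. In CKO it was at 16.6 and 11.1 CPM untreated, 123.3 and 115.3 CPM with IFN-γ, and 21.3 and 19 CPM with IL-4. All 4 IFN-γ libraries lay above all 8 others. The increase was 3.36 ± 0.16 on the log2 scale in WT (10.2-fold, adjusted p = 2.32e-08) and 3.12 ± 0.16 in CKO (8.67-fold, adjusted p = 3.82e-08). IL-4 left Axl at a log2 difference of −0.13 in WT (adjusted p = 0.684) and raised it by 0.55 ± 0.16 in CKO (1.46-fold, adjusted p = 0.0261). That last call was lost when only the 2 groups compared were fitted (adjusted p = 0.176), without untreated CKO library 2 (0.28, adjusted p = 0.0915) and without either IL-4 CKO library (adjusted p = 0.104 without library 1 and 0.062 without library 2).

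Gas6 and Axl changed in opposite directions with IFN-γ in both genotypes, and the 250 bases before their starts, with those of the related receptor Mertk, are shown as the sequence context of these genes. They are from RefSeq on GRCm38.p6, 5′ to 3′ on the gene's strand, and capitals mark GC boxes (GGGCGG on either strand). Axl is at chr7:25788734-25788983 (minus strand), Gas6 at chr8:13494536-13494785 (minus strand) and Mertk at chr2:128698665-128698914 (plus strand).
Axl: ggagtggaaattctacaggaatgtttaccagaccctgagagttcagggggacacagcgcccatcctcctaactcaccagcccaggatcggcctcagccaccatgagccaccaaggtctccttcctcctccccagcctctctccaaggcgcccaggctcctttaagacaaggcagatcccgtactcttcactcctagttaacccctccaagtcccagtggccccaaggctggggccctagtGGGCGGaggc
Gas6: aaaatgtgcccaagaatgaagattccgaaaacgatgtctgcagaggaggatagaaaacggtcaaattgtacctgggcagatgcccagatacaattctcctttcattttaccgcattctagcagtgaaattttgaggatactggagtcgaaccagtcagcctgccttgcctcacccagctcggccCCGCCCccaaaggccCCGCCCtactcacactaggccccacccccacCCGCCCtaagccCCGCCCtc
Mertk: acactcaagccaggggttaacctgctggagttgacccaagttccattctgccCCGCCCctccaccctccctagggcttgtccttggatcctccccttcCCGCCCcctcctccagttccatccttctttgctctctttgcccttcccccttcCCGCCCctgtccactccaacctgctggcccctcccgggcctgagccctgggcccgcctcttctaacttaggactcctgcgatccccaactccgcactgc
Promoters of 7 of the 9 genes were in the table used, and those of Msr1 and Scarb1 were not. None of the 7 held an exact match, on either strand, to 4 motifs. These were the STAT6 motif (TTC and GAA spaced by 4 bases), the interferon-stimulated response element (GAAA repeated after 2 bases), and direct repeats of AGGTCA spaced by 4 bases (DR4, liver X receptors) or by 1 base (DR1, PPAR). Among 32851 promoters of the same length, 5.85%, 2.98%, 0.0152% and 0.0335% held them in that order. A stretch can hold more than 1 of these motifs, and each was counted by itself. GC boxes, added to the search after those gave no match, were in Cd36, Mertk, Axl and Gas6, 4 of the 7, and in 32.7% of all promoters. Axl held 1, with its first base 10 bases before the start, Mertk held 3 and Gas6 held 4. These matches describe letters in the window and are no evidence on any factor's binding.

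Mertk, the receptor tyrosine kinase most used by macrophages to clear dying cells, was called between genotypes in untreated cells and with IL-4 in CKO. Its WT levels were 80.2 and 81.9 CPM untreated, 111.7 and 103.5 CPM with IFN-γ, and 51 and 50 CPM with IL-4. Its CKO levels were 206.8 and 137.5 CPM, 172.6 and 133.6 CPM, and 104.2 and 62.4 CPM. The CKO library pairs were wide, with library 1 above library 2 in each condition, whereas the WT pairs were narrow. The log2 difference with IFN-γ was 0.41 in WT (adjusted p = 0.262) and −0.17 in CKO (adjusted p = 0.652), and that with IL-4 was −0.68 in WT (adjusted p = 0.0962). Fits that treated same-numbered libraries as belonging together called the WT difference with IL-4, though no label states that pairing. Within genotype, such a fit also called the WT difference with IFN-γ. In CKO Mertk fell by 1.05 ± 0.24 with IL-4 (2.07-fold, adjusted p = 0.0102). This call was lost without untreated CKO library 1 (−0.73, adjusted p = 0.0905), without IL-4 CKO library 2 (−0.72, adjusted p = 0.0701) and when only the 2 groups were fitted (adjusted p = 0.075).

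Untreated Mertk was higher in CKO than in WT by 1.09 ± 0.24 on the log2 scale (2.12-fold, adjusted p = 0.0125), and both CKO libraries lay above both WT libraries. The call was lost without untreated CKO library 1, in which the level was highest (0.77, adjusted p = 0.105), and without untreated WT library 1 (1.07, adjusted p = 0.0831) or library 2 (1.10, adjusted p = 0.0744). After IFN-γ the difference was 0.51 (adjusted p = 0.16) and after IL-4 0.72 (adjusted p = 0.164), again with no overlap of libraries.

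Timd4, a phosphatidylserine receptor of resident macrophages, was near the limit of detection and passed the filter on low counts only through the WT libraries with IFN-γ. Its counts were 12 and 36 there, 10 and 7 in CKO with IFN-γ, 0 and 3 in untreated WT, and 0 in all 6 libraries of the other 3 groups. These are levels of 0.497 and 1.30 CPM in WT and 0.376 and 0.260 CPM in CKO. Over the summed counts the ratio of IFN-γ to untreated in WT was 17.8 (95% counting interval 5.75 to 89.6), and in CKO it was at least 6.47-fold higher, taking 3 counts as the floor of the empty group. Against IL-4 it was at least 15.5-fold higher in WT and at least 6.67-fold higher in CKO. Because the gene was kept through the group in which it is high, no test of its differences is given. Between genotypes after IFN-γ the CKO to WT ratio of Timd4 was 0.344 (95% counting interval 0.185 to 0.609). Both intervals cover counting error only, not the spread between libraries, so they are no test of a difference. Of 7 tested dendritic cell markers, 3 rose with IFN-γ in WT, beside 12.4% of all tested genes called higher. Clec9a was at 43.7 and 52.7 CPM in WT with IFN-γ, 6.47 and 5.5 CPM in CKO with IFN-γ and at most 0.304 CPM elsewhere. Batf3 did not follow the Timd4 counts over all groups: it was at 4.1 and 5 CPM in WT and 1.2 and 0.818 CPM in CKO with IFN-γ, but at 5.98 and 5.27 CPM in WT and 7.21 and 6.68 CPM in CKO with IL-4, where Timd4 had no counts. Their part in the Timd4 counts was not tested.

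Among the scavenger receptors, Stab1, a large receptor that also clears dying cells, fell with both cytokines and did not pass the test between genotypes. WT libraries held 3486 and 3202 CPM untreated, 1429 and 1057 CPM with IFN-γ, and 1481 and 1490 CPM with IL-4. CKO libraries held 3346 and 3507 CPM, 1264 and 1277 CPM, and 1429 and 1480 CPM. Every treated library lay below every untreated one, and the 4 untreated libraries overlapped between genotypes. Stab1 fell by 1.43 ± 0.13 with IFN-γ in both WT (2.69-fold, adjusted p = 6.49e-06) and CKO (2.70-fold, adjusted p = 6.09e-06). With IL-4 it fell by 1.17 ± 0.13 in WT (adjusted p = 9.27e-05) and by 1.24 ± 0.13 in CKO (adjusted p = 4.75e-05). Nt5dc2 overlaps Stab1 on the other strand, with 1254 to 3971 counts against at least 29376 for Stab1.

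Msr1, the type A receptor for modified lipoproteins and polyanions, rose with IFN-γ in both genotypes and by more in CKO. Levels in WT were 618.3 and 575.7 CPM untreated, 1207 and 1265 CPM with IFN-γ, and 503 and 429.6 CPM with IL-4. Levels in CKO were 411.4 and 438.9 CPM, 1523 and 1495 CPM, and 356.5 and 432.7 CPM. The IFN-γ libraries of both genotypes lay above all 8 others. The increase with IFN-γ was 1.05 ± 0.12 in WT (2.07-fold, adjusted p = 3.34e-05) and 1.83 ± 0.12 in CKO (3.55-fold, adjusted p = 2.96e-07). The difference between these responses was 0.78 ± 0.16 (adjusted p = 0.0275). It was lost in 9 of the 12 fits that each left out 1 library (0.71 to 0.83, adjusted p up to 0.14), in every one except those without untreated CKO library 2 or either IL-4 CKO library. With IL-4 the log2 difference was −0.36 in WT (adjusted p = 0.0711) and −0.11 in CKO (adjusted p = 0.542).

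Marco, the class A receptor that binds bacteria and particles, fell with IL-4 in both genotypes and with IFN-γ in WT, and its 2 untreated WT libraries were far apart. The WT libraries were at 485.3 and 898.1 CPM untreated, 233.7 and 356.9 CPM with IFN-γ, and 199.7 and 209.9 CPM with IL-4. The CKO libraries were at 579.5 and 731.4 CPM, 858 and 770.2 CPM, and 276 and 262.6 CPM. In WT all treated libraries lay below both untreated ones, and in CKO the IFN-γ libraries lay above both untreated ones. With IFN-γ Marco fell by 1.23 ± 0.27 in WT (2.34-fold, adjusted p = 0.00631), and the log2 difference in CKO was 0.31 (adjusted p = 0.43). The WT call was lost without IFN-γ WT library 1 (−0.96, adjusted p = 0.0592) and with only the 2 groups in the fit (adjusted p = 0.103). The difference between the responses was 1.54 ± 0.37 and did not pass the test (adjusted p = 0.0624). DESeq2 (adjusted p = 0.000467) and the fit with a stricter filter on low counts (adjusted p = 0.0448) called it. Both fits that treated same-numbered libraries as belonging together also called it, though no label states that pairing. With IL-4 Marco fell by 1.76 ± 0.27 in WT (3.38-fold, adjusted p = 0.00171) and by 1.28 ± 0.27 in CKO (2.43-fold, adjusted p = 0.0071). The WT call was lost with only the 2 groups in the fit (adjusted p = 0.0951) and the CKO call without IL-4 CKO library 2 (adjusted p = 0.0562).

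Cd36, the fatty acid and oxidised lipoprotein receptor, was highest with IL-4 and lowest with IFN-γ in CKO. The WT values were 1638 and 1593 CPM untreated, 1249 and 1518 CPM with IFN-γ, and 2881 and 2413 CPM with IL-4. The CKO values were 1689 and 1292 CPM, 706.7 and 711.8 CPM, and 2147 and 2188 CPM. The 2 IFN-γ CKO libraries lay below all 10 others and the 4 IL-4 libraries above all 8 others. Cd36 rose with IL-4 by 0.71 ± 0.14 in WT (1.64-fold, adjusted p = 0.00629) and by 0.54 ± 0.14 in CKO (1.45-fold, adjusted p = 0.0186). The WT call was lost without either untreated WT library (adjusted p = 0.0518 and 0.0572) or IL-4 WT library 1 (0.57, adjusted p = 0.0968). The CKO call was lost without untreated CKO library 2 (0.36, adjusted p = 0.0682), without IL-4 CKO library 2 (adjusted p = 0.0908) and with only the 2 groups in the fit (adjusted p = 0.103).

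With IFN-γ Cd36 fell by 1.07 ± 0.14 in CKO (2.10-fold, adjusted p = 0.000144), and the log2 difference in WT was −0.22 (adjusted p = 0.308). The difference between these responses was −0.85 ± 0.20 (adjusted p = 0.0481). It was past the threshold in only 2 of the 12 fits that left out 1 library, those without IFN-γ WT library 1 or untreated CKO library 2, and in the others the adjusted p was 0.0616 to 0.183. It was also lost with a stricter filter on low counts (adjusted p = 0.0586) and with only the groups compared in the fit (adjusted p = 0.0952).

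Scarb1, the receptor for high-density lipoprotein, varied least of the 8 genes with more than a few counts. WT cells had 76.9 and 83.7 CPM untreated, 97.8 and 86.5 CPM with IFN-γ, and 80.4 and 80.2 CPM with IL-4. CKO cells had 70.3 and 84.3 CPM, 120.7 and 115.6 CPM, and 81.3 and 80.3 CPM. The 2 IFN-γ CKO libraries lay above all 10 others. Scarb1 rose with IFN-γ by 0.61 ± 0.11 in CKO (1.53-fold, adjusted p = 0.00111), and the log2 difference in WT was 0.20 (adjusted p = 0.226). With IL-4 the log2 difference was 0.00 in WT and 0.06 in CKO (adjusted p = 1 and 0.711).

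**Figure D3:**
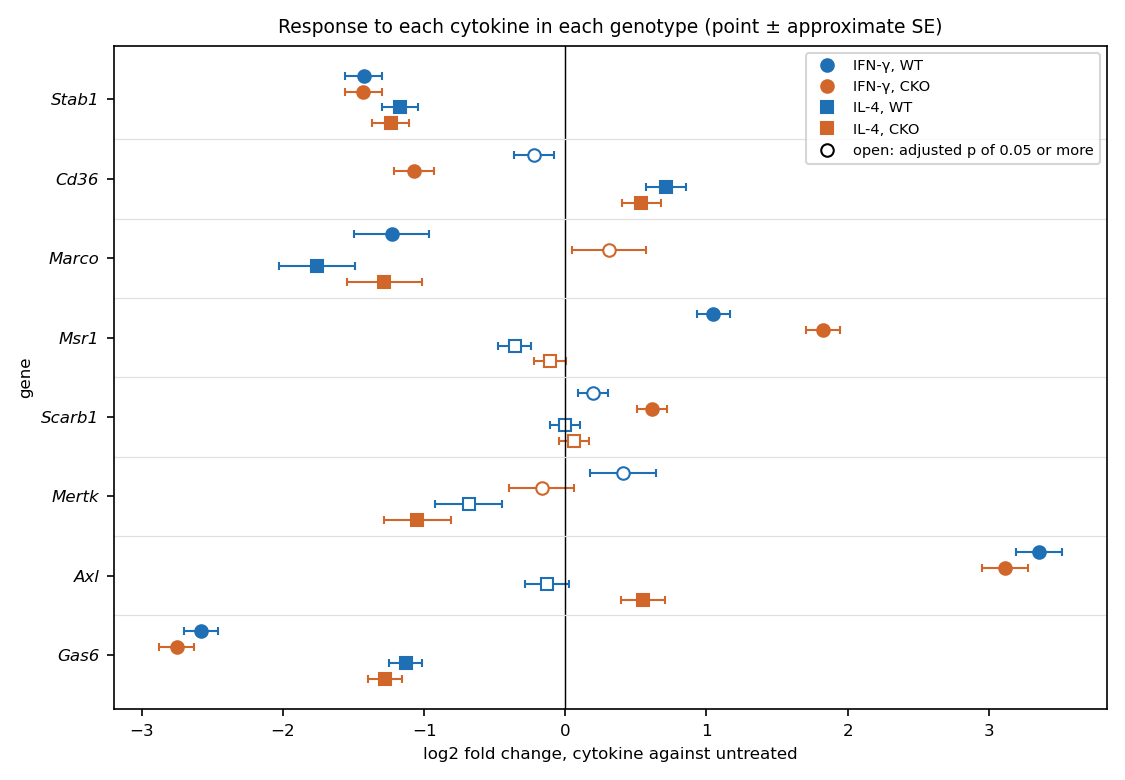
Log2 fold change with IFN-γ and with IL-4 against untreated for 8 genes (Timd4 left out) in WT and CKO, with bars of 1 approximate SE and filled points where the test was passed. Axl rises and Gas6 and Stab1 fall with IFN-γ in both genotypes, and Marco falls with IFN-γ in WT while its CKO point is open.

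Set directly against IL-4, IFN-γ gave 5 called genes of the 8 in WT (3 higher, 2 lower), against 28.0% of all tested genes (14.2% higher, 13.8% lower), and 7 in CKO (5 higher, 2 lower), against 29.9% (16.3% higher, 13.7% lower). Cd36 was lower with IFN-γ by 0.94 ± 0.14 in WT and by 1.61 ± 0.15 in CKO, and Gas6 was lower by 1.45 ± 0.12 and 1.48 ± 0.12. Msr1 was higher by 1.41 ± 0.12 and 1.94 ± 0.12, and Axl by 3.48 ± 0.16 and 2.57 ± 0.16. Mertk was higher with IFN-γ than with IL-4 by 1.09 ± 0.24 in WT (adjusted p = 0.0053) and by 0.88 ± 0.24 in CKO (adjusted p = 0.0157). The CKO call for Mertk was lost without IFN-γ CKO library 1 (adjusted p = 0.149) or IL-4 CKO library 2 (0.56, adjusted p = 0.105). Marco (1.60 ± 0.27) and Scarb1 (0.55 ± 0.11) were called in CKO, and in WT their differences of 0.53 and 0.20 had adjusted p-values of 0.174 and 0.207. Stab1, which both cytokines lowered, did not pass the test in either genotype (−0.26 in WT, adjusted p = 0.168, and −0.20 in CKO, adjusted p = 0.294).

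Between genotypes, 2 of the 8 genes were called untreated (1 higher and 1 lower in CKO), against 18.0% of all tested genes (8.60% higher, 9.37% lower). After IFN-γ 4 were called (2 higher, 2 lower), against 18.4% (10.4% higher, 8.01% lower). After IL-4 none was called by edgeR, against 2.96% (1.41% higher, 1.55% lower). After IL-4 the unadjusted p was under 0.05 for 2 genes, Mertk and Axl, and DESeq2 called 1, Mertk (adjusted p = 0.0409). Beside Mertk, Msr1 was lower in untreated CKO by 0.49 ± 0.12 (1.40-fold, adjusted p = 0.0157), a call lost without untreated CKO library 1 (−0.44, adjusted p = 0.0869), without either untreated WT library (adjusted p = 0.104 and 0.0594) and with only the 2 groups in the fit (adjusted p = 0.0687). Untreated Axl differed by −0.25 (adjusted p = 0.287) and was called lower in CKO without untreated CKO library 1 (−0.56, adjusted p = 0.0268). Gas6 differed by 0.18 (adjusted p = 0.3), although its CKO libraries lay above those of WT.

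After IFN-γ Cd36 was lower in CKO by 0.96 ± 0.14 (1.95-fold, adjusted p = 0.000745) and Marco was higher by 1.46 ± 0.27 (2.76-fold, adjusted p = 0.004), and both calls held in every alternative fit. Scarb1 was higher by 0.36 ± 0.11 (1.28-fold, adjusted p = 0.0372) and Axl lower by 0.49 ± 0.15 (1.40-fold, adjusted p = 0.0377). The Scarb1 call was lost in 6 of the 12 fits that left out 1 library (0.27 to 0.37, adjusted p up to 0.231): without untreated WT library 2, IFN-γ WT library 2, either IL-4 WT library or either IFN-γ CKO library. The Axl call was lost in 8 of the 12 (−0.46 to −0.56, adjusted p up to 0.183), those without any 1 WT library or either IFN-γ CKO library, and with a stricter filter (adjusted p = 0.0571). Msr1 differed by 0.29 after IFN-γ (adjusted p = 0.108). Neutrophil markers moved with the same label, with 12 of 14 higher in CKO both untreated and after IFN-γ and 10 of 14 after IL-4. Those with the smallest adjusted p in untreated cells were Mmp8 (196 and 181 CPM in untreated WT, 673 and 549 CPM in untreated CKO) and Lcn2 (1.82 and 2.59 CPM against 13.9 and 10.6 CPM). Monocyte markers were also higher, in 7, 6 and 5 of 8 in the same order. Of all tested genes, 8.60% were called higher in CKO untreated, 10.4% after IFN-γ and 1.41% after IL-4. The part of these markers in the differences above was not tested.

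**Figure D4:**
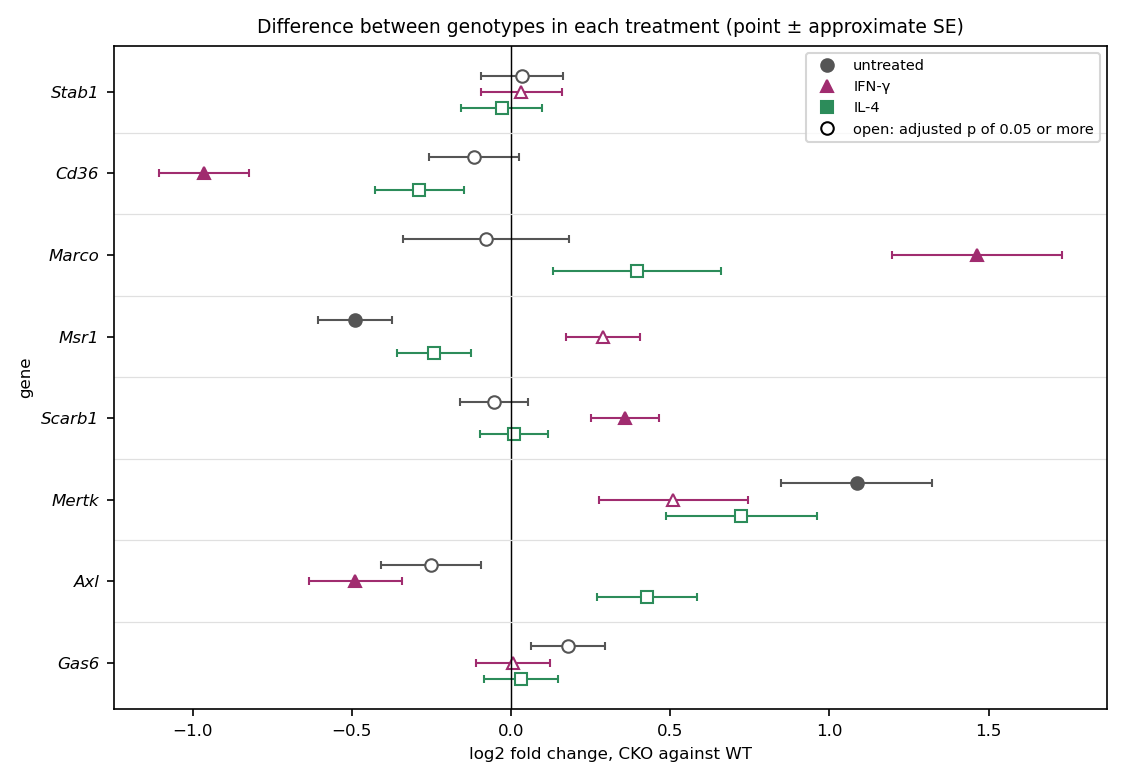
Log2 difference of CKO against WT for 8 genes (Timd4 left out) in untreated, IFN-γ and IL-4 libraries, with bars of 1 approximate SE and filled points where the test was passed. Cd36 lies below 0 and Marco above 0 after IFN-γ, and no point is filled after IL-4.

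Other genes of these pathways were taken from 4 lists of textbook genes, chosen with earlier results of these data known. The shares of all tested genes beside their counts are for reference and test no enrichment. Some genes belong to 2 lists (Lrp1, Stab2 and Megf10), and Cd14 and Cx3cr1 are also marker genes. Of 23 tested genes of apoptotic cell recognition, 17 were called with IFN-γ in WT (7 higher, 10 lower) and 18 in CKO (7 higher, 11 lower), beside 24.2% and 26.6% of all tested genes. In WT the integrin subunit Itgb3 fell by 5.07, the sphingosine phosphate receptor S1pr1 by 3.28 and Cd14 by 2.52 on the log2 scale. Itgb3 was at only 0.745 and 0.36 CPM in WT with IFN-γ, so the size of its fall there rests on few counts. In CKO the phosphatidylserine-binding receptor Cd300lf rose by 2.42 and the complement subunit C1qb by 3.98, and Itgb3 fell by 3.23. The difference between these responses was called for 8 of 23, beside 2.72% of all tested genes. All were higher in CKO, among them C1qb (2.34), Cd14 (1.75) and S1pr1 (1.62). For Cd14 and S1pr1 this was a smaller fall. S1pr1 went from 55.5 and 61.9 CPM to 6.46 and 5.61 CPM in WT, and from 69.8 and 73.2 CPM to 23.5 and 21.7 CPM in CKO. C1qb was still lower in CKO after IFN-γ, at 675 and 553 CPM against 1410 and 1640 CPM in WT. With IL-4, 14 of 23 were called in WT (5 higher, 9 lower) and 14 in CKO (6 higher, 8 lower), beside 12.2% and 22.5%, with Itgb3 higher by 2.96 and 3.02 and Cd14 lower by 2.43 and 2.73.

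Between genotypes, 14 of the 23 were called untreated (6 higher, 8 lower), 16 after IFN-γ (10 higher, 6 lower) and 9 after IL-4 (3 higher, 6 lower), beside 18.0%, 18.4% and 2.96% of all tested genes. The complement C1q genes, whose product bridges dying cells to phagocytes, were lower in CKO: C1qb by 3.65 and C1qc by 2.28 untreated, and C1qa by 2.95, C1qb by 1.89 and C1qc by 1.59 after IL-4. The fractalkine receptor Cx3cr1 was higher in CKO by 2.70 untreated and by 5.39 after IFN-γ. After IFN-γ it was at only 0.166 and 0.216 CPM in WT, against 7.64 and 8.85 CPM in CKO. The size of that difference therefore rests on few WT counts. Pros1, which encodes protein S, a further bridging ligand of Mertk, is named here after its values were seen. It rose with IFN-γ by 0.86 in WT (adjusted p = 0.00313) and by 0.59 in CKO (adjusted p = 0.0282), opposite to Gas6.

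Among 12 other tested scavenger receptors, 6 were called with IFN-γ in WT (2 higher, 4 lower) and 7 in CKO (2 higher, 5 lower), beside 24.2% and 26.6% of all tested genes. The collectin Colec12 fell by 1.90 in WT and by 1.33 in CKO, and Cxcl16, a membrane chemokine that binds oxidised lipoprotein, rose 3.91-fold and 3.96-fold. The haemoglobin receptor Cd163 fell by 2.07 in WT. With IL-4 Cxcl16 fell by 2.15 in WT and by 1.88 in CKO. Cd5l, a secreted scavenger protein of macrophages, was higher in CKO by 2.18 untreated and 2.45 after IFN-γ. Of these 12, 4 were called between genotypes untreated (3 higher, 1 lower), 4 after IFN-γ (all higher) and 1 after IL-4 (lower), beside 18.0%, 18.4% and 2.96%.

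Of 18 tested genes of engulfment and its brakes, 6 were called with IFN-γ in WT (2 higher, 4 lower) and 8 in CKO (7 higher, 1 lower). These are 33.3% and 44.4% of the list, beside 24.2% and 26.6% of all tested genes. Elmo2, a partner of the Dock exchange factors, rose by 0.41 and 0.76, and in WT Dock1 fell by 0.55 and Trio by 0.65. Between genotypes 2 were called untreated (both lower), 5 after IFN-γ (all higher, among them the inhibitory receptors Pirb, by 0.84, and Sirpa, by 0.52) and 1 after IL-4. These are 11.1%, 27.8% and 5.56% of the list, beside 18.0%, 18.4% and 2.96% of all tested genes.

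All 24 genes of lipid handling and its regulators were tested. With IFN-γ 13 were called in WT (7 higher, 6 lower) and 18 in CKO (12 higher, 6 lower), beside 24.2% and 26.6% of all tested genes. The lipase Lpl rose by 1.23 and 1.63, and the transcription factor Maf fell by 0.74 and 0.90. The nuclear receptor Pparg, a known regulator of Cd36, rose with IL-4 by 1.67 in WT and 1.85 in CKO. After IFN-γ Pparg was higher in CKO than in WT by 0.475 (edgeR's adjusted p = 0.0104), whereas Cd36 was lower. The part of Pparg in the Cd36 levels was not tested. Nr1h3 was higher in CKO in all 3 conditions, by 1.53 untreated, 3.22 after IFN-γ and 0.97 after IL-4, and its IFN-γ response differed by 1.69 (adjusted p = 0.00123). It was at 5.24 and 4.78 CPM in untreated WT and 16.2 and 12.8 CPM in untreated CKO, and after IFN-γ at 5.84 and 5.04 CPM against 52.6 and 48.6 CPM.

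The genes most like each member were ranked by Pearson's r of log2 CPM over the 12 libraries among 8615 genes with a mean log2 CPM of at least 3. These libraries share treatments and genotypes, so r describes the shared pattern over conditions. Msr1 was most like Klf6 (r = 0.995), Ube2l6 (0.988) and Slc28a2 (0.987), and Axl was most like Tspo (0.993), Pla2g16 (0.992) and Apobec3 (0.989). Stab1 was most like Stard8 (0.987), Abcc1 and Pik3cg, and Gas6 like Prkacb (0.985), Marveld1 and Cbr3. Mertk was most like Marf1 (0.980), Mtmr3 and Phf21a, Cd36 like Pepd (0.967), Ndufs1 and Kansl2, Scarb1 like Napa (0.960), Tirap and Atxn7l3, and Marco like Pilra (0.953), Casd1 and Rassf2. Timd4, most like Hif1a (0.970), rests on few counts.

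By position on GRCm38 (GENCODE M21, whole genes), Cd36 spans chr5:17781690-17888801, Scarb1 chr5:125277087-125341094, Msr1 chr8:39581685-39642673, Marco chr1:120474538-120505024, Stab1 chr14:31139013-31168641, Mertk chr2:128698956-128802894, Axl chr7:25757273-25788705, Gas6 chr8:13465374-13494490 and Timd4 chr11:46810800-46844332. Mertk and Timd4 lie on the plus strand and the others on the minus strand, and counts are summed over exons of a gene. Gm42633 overlaps Scarb1 on the same strand with 9 to 23 counts, and the genes overlapping Mertk and Gas6 had at most 7 counts.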

How the data were processed

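The deposited table holds the authors' raw read counts per gene, as whole numbers. The submitters' processing notes name HTSeq 0.6.1, TopHat2 2.0.13, CASAVA 1.8.2, Picard 1.97 and 2 builds (GRCh38 and mm10) without their roles. Libraries were prepared with an Illumina RNA Exome kit, per the labels. Whether counting used strand is not given in the sources used here, which leaves genes with an overlapping neighbour on the other strand uncertain. Library totals ran from 21287725 to 32717379 counts. All column names matched a sample. The 9 genes, the 4 pathway lists and the 9 marker lists were chosen with earlier results of these data known.

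Of 48440 genes, 22932 had no count and 16292 were kept by filterByExpr. All 12 libraries entered 1 edgeR model (edgeR 4.0.16 in R 4.3.3) with a mean per group, TMM scaling and robust dispersions, leaving 6 residual degrees of freedom. Each of 11 comparisons was tested by the two-sided quasi-likelihood F test, with Benjamini-Hochberg adjusted p under 0.05 as a call. An approximate SE was taken as the size of the log2 fold change divided by the root of F. Timd4 ratios use summed counts with a floor of 3 counts over a group, and their 95% exact intervals cover counting error only. Named genes are the 9 members, up to 3 called genes with the smallest adjusted p per list and comparison, Lyz2, Irf8 and the 2 top members of marker lists that moved, and the 3 genes most alike each member; Pros1 was added after its values were seen. Where a symbol had 2 rows, the row with more counts was used. Positions and lengths came from GENCODE M21, matched by identifier, and promoters from RefSeq on GRCm38.p6. Alternatives were DESeq2 1.42.0, its size factors in edgeR, no low-count filter, a filter at a mean CPM of 5, only the groups compared, the library number as a block over all libraries or within genotype, and leaving out each library. A group left with 1 library is assumed to vary like the others. The fit was tested on simulated counts. The search for 1 further motif is left out of the text.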

Additional observations from a re-analysis of the deposited data

Results flagged for a closer look

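The IFN-γ response differed between genotypes, by a test of the difference itself, for Cd36 and Msr1. For Cd36 the response in CKO minus that in WT was −0.85 on the log2 scale (edgeR, adjusted p = 0.0481), with a response of −1.07 in CKO and −0.22 in WT. For Msr1 it was 0.78 (edgeR, adjusted p = 0.0275), with 1.83 in CKO and 1.05 in WT. Each call was lost in most of the fits that left out 1 library. These include the fit without untreated CKO library 1, which stood apart in its mitochondrial share (−0.67 for Cd36 and 0.71 for Msr1). The Cd36 call was also lost with a stricter filter on low counts and with only the groups compared in the fit. The cause of either difference was not tested.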

How the results depend on the processing

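Of 45 called results on the 9 genes, 4 of them on Timd4, 27 were called in the same direction in every alternative fit. None of the 27 is on Timd4. The 4 Timd4 calls are not taken as results, because the gene was kept through the group in which it is high. Their refits are among the fits counted next. Over 845 alternative fits of the called results, 769 kept the call, 76 lost it and none turned direction. Many of these fits left out a library of a group outside the comparison, which changes little but the shared estimate of spread. The kept share is therefore no measure of how firm a call is. Over 892 alternative fits of results that were not called, 45 gave a call. The counts that follow are over all 9 genes, Timd4 among them, and describe only how calls move with the fit. In the main fit, 18.0%, 18.4% and 2.96% of all tested genes were called between genotypes untreated, after IFN-γ and after IL-4. For IL-4 in CKO it was 22.5%, and for the IFN-γ and IL-4 interactions 2.72% and 0.0368%. Genes called between genotypes in untreated cells numbered 1 with only the groups compared, and 0 to 2 when 1 library was left out. After IFN-γ leaving out 1 library gave 2 to 4. After IL-4 they numbered 1 with DESeq2, 3 without the low-count filter, 1 with the replicate block and 0 to 1 when 1 library was left out. With IL-4 in CKO they numbered 3 with only the groups compared and 2 to 6 when 1 library was left out. The IFN-γ interaction gave 4 genes without the low-count filter, 1 with only the groups compared, 4 with the replicate block within genotype and 0 to 3 when 1 library was left out, and the IL-4 interaction gave 1 without the filter. Beside Cd36 and Msr1, that block called the IFN-γ interaction of Marco (1.52, edgeR's adjusted p = 0.00432) and Mertk (−0.56, adjusted p = 0.0243). It also called Mertk in WT with IFN-γ (0.41, adjusted p = 0.00495) and IL-4 (−0.69, adjusted p = 0.000181), and Msr1 in WT with IL-4 (−0.36, adjusted p = 0.0251). The block over all libraries called the IFN-γ interaction of Marco (1.55, adjusted p = 0.0249) and Mertk with IL-4 in WT (−0.69, adjusted p = 0.0179) and between genotypes after IL-4 (0.69, adjusted p = 0.0406). The causes were not tested.

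Among differences that were not called, several changed sign. Gas6 after IFN-γ (CKO against WT) was −0.012 with only the groups compared. Scarb1 with IL-4 in WT was −0.007 with DESeq2 and with its size factors, −0.019 without the filter, −0.017 with the stricter one and 0.00 with the replicate block within genotype. The Stab1 IFN-γ interaction was 0.003 without the filter and 0.007 with that block. When 1 library was left out, some values crossed 0. For the untreated genotype difference, Cd36 ran from −0.31 to 0.069, Marco from −0.45 to 0.43, Scarb1 from −0.19 to 0.079, Stab1 from −0.025 to 0.10 and Axl from −0.56 to 0.021. For the genotype difference after IFN-γ, Stab1 ran from −0.17 to 0.27 and Gas6 from −0.16 to 0.20. For the genotype difference after IL-4, Scarb1 ran from −0.001 to 0.035 and Gas6 from −0.002 to 0.091. For IFN-γ in CKO, Mertk ran from −0.43 to 0.13. For IL-4 in WT, Scarb1 ran from −0.071 to 0.062. For IL-4 in CKO, Msr1 ran from −0.25 to 0.025 and Scarb1 from −0.069 to 0.20. For the IFN-γ interaction, Stab1 ran from −0.20 to 0.23, Axl from −0.50 to 0.046 and Gas6 from −0.34 to 0.016. For the IL-4 interaction, Cd36 ran from −0.34 to 0.036, Marco from −0.039 to 0.87 and Scarb1 from −0.060 to 0.22. The labels do not state that libraries with the same number belong together. Deviations of same-numbered libraries correlated at 0.1 to 0.431 over pairs of groups within a genotype and at −0.005 to 0.256 across genotypes. The block is therefore a hint from the data only. Counts of at most 36 per library limit Timd4, and 2 libraries per group limit the precision of every result.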
